A study of Homo sapiens with 6 samples.

Results

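The mucin genes MUC1, MUC4, MUC5AC, MUC5B, MUC13, MUC16 and MUC20 were followed in PC-3 cells treated with S-adenosylmethionine (SAM). They are 7 of 57396 genes in the count table and were found by gene symbol. PC-3 is an established line grown from a metastasis of a prostate carcinoma, and it was the single line used. One group received 160 micromolar SAM for 5 days and the other received PBS for 5 days, with 3 libraries each. The genes were chosen by name when SAM-against-control results of these libraries were already known, so their own fold changes and calls are given as a description, without p-values. Separate cultures are not named for the replicates of a group, so p-values for other genes below measure only how far these libraries scatter, and that scatter may be technical. SAM is the methyl donor of most cellular methylation reactions.

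Mucins are long glycoproteins whose serine- and threonine-rich repeats carry dense O-linked sugar chains. The secreted gel-forming members, such as MUC5AC and MUC5B, polymerise into mucus. The membrane-bound members span the cell surface, where part of the extracellular chain can be shed and where some of them contact growth factor receptors. In prostate and other carcinoma cells mucins are known mainly for changes in their amount and glycosylation.

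Mean levels of MUC5B were 4.16 times lower with SAM and those of MUC13 4.99 times higher, the largest differences among the 6 of these genes that could be tested. Levels are given as CPM, read counts scaled to library size with TMM factors. The control mean of MUC5B was 23.1 ± 4.55 CPM and the SAM mean 5.55 ± 1.03 CPM (SD, n = 3). For MUC13 the means were 0.516 ± 0.183 CPM without and 2.57 ± 1.03 CPM with SAM. MUC1, MUC5AC and MUC20 had means 1.42 to 1.51 times lower with SAM, which did not pass the test, and MUC4 differed by less than the spread between its control libraries. MUC16 had at most 15 counts in a library. In bulk RNA, fewer cells with a transcript and less of it per cell cannot be told apart.

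**Figure D1:**
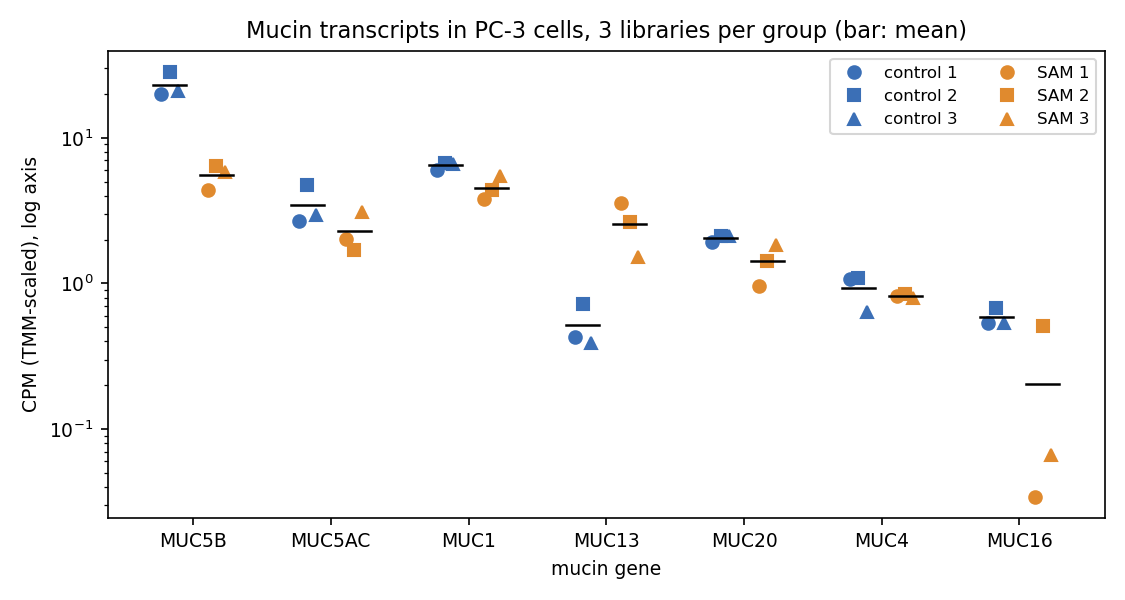
CPM with TMM scaling on a log axis (vertical) for the 7 mucin genes (horizontal), with control libraries in blue, SAM libraries in orange, a marker shape for each replicate number and a bar at the group mean. MUC5B lies between 19.95 and 28.3 CPM in controls and between 4.41 and 6.43 CPM with SAM, while MUC13 lies at or below 0.727 CPM in controls and at or above 1.52 CPM with SAM.

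The libraries held between 9379258 counts (control 1) and 28995160 counts (SAM 1), so 3 counts corresponded to 0.103 to 0.320 CPM. Control 1 and SAM 2 stood apart by the share of both mitochondrial rRNA genes, 0.700% and 0.863%, against 0.431 to 0.499% in the other 4 libraries. They differed more by the gene CTD-2328D6.1, with 1.18% and 1.56% of counts, against 0.0324 to 0.0636% in the other 4. The epithelial markers EPCAM, KRT8, KRT18, KRT19 and CDH1 were at 243 to 1307 CPM in every library, and CDH1, called lower, went from 365 to 267 CPM. The prostate luminal gene KLK3 had 0 counts in all libraries, and PC-3 cells are known to lack it. Among leukocyte markers CD68, called higher, went from 0.438 to 1.21 CPM, while PTPRC, CD3E and LYZ had at most 12, 2 and 4 counts in a library. Fibroblast sums (4 genes) were 16.9 to 18.8 CPM in controls and 16.6 to 16.97 CPM with SAM. Nearly all of these sums was COL1A1, with means of 17.7 and 16.8 CPM. COL1A2 had means of 0.0792 and 0.0555 CPM, and DCN and LUM were at 0. Endothelial sums (VWF and CDH5) were 0.409 to 0.734 CPM in controls and 0.379 to 0.660 CPM with SAM. The mesenchymal marker VIM went from 10.01 to 14.4 CPM and was called higher. The part of these markers in the results was not tested.

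MUC5B (ENSG00000117983, chromosome 11, positions 1223066 to 1262172 on the plus strand) encodes a gel-forming mucin of airway and salivary mucus. Controls 1 to 3 gave 186, 623 and 428 counts, and SAM libraries 1 to 3 gave 128, 76 and 88. Scaled to depth these were 19.95, 28.3 and 21.0 CPM against 4.41, 6.43 and 5.81 CPM. Every control library lay well above every SAM library. The log2 fold change was -2.10 (SE 0.19), the 21st largest of 15312 tested genes in absolute size. It stayed between -2.29 and -1.91 under 19 alternative settings, each of which kept the call. The annotation places 48 merged exons in this gene, and a single exon of 10893 bases holds 58.6% of its exonic length. Another annotated gene inside MUC5B (ENSG00000255177) had 0 counts in all 6 libraries. MUC5AC, MUC5B, MUC2 and MUC6 are related in sequence, and how reads shared between them were counted is not known here.

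MUC5AC (ENSG00000215182, chromosome 11, positions 1157953 to 1201138), the other secreted member, encodes the gel-forming mucin of stomach and airway goblet cells. Its control libraries had 2.68, 4.72 and 2.94 CPM and its SAM libraries 2.03, 1.69 and 3.10 CPM, in replicate order. SAM 3 lay above controls 1 and 3, so the groups overlapped. The log2 fold change of -0.64 (SE 0.28) did not pass the threshold, an adjusted p under 0.05 in edgeR's quasi-likelihood fit over all genes. Without control 2, its highest library, the log2 fold change was -0.31.

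MUC5AC and MUC5B are neighbours, 21928 bases apart, in a cluster of gel-forming mucin genes that also holds MUC2 and MUC6. All 4 had negative log2 fold changes, as did RP13-870H17.3, a gene between MUC6 and MUC2 (-0.51, SE 0.21), which did not pass. MUC2, the chief mucin of the intestine and no member of the list of 7, fell to 12.5 ± 3.16 CPM from 22.7 ± 1.87 in controls (edgeR adjusted p = 0.0180 at a log2 fold change of -0.89, SE 0.18). Its libraries were at 24.3, 23.0 and 20.7 CPM in controls and at 8.89, 14.9 and 13.6 CPM with SAM, without overlap. MUC2 lost its call without control 1, 2 or 3 or SAM 1, with an adjusted p of up to 0.0764 and a log2 fold change of -1.03 to -0.67 over all settings. MUC6, a gastric gland mucin, had means of 2.80 and 1.71 CPM without and with SAM and overlapping groups, a log2 fold change of -0.74 (SE 0.31) that did not pass. The genes bordering the cluster, AP2A2, an adaptor subunit of clathrin coats, and TOLLIP, an adaptor of Toll-like receptor signalling, had log2 fold changes of 0.05 (SE 0.12) and 0.20 (SE 0.08) and did not pass either. TOLLIP lies 12199 bases beyond the end of MUC5B. Farther on, TOLLIP-AS1, its antisense gene, and BRSK2, a kinase, had log2 fold changes of -0.65 (SE 0.44) and -0.52 (SE 0.17) and did not pass, so negative values were not confined to the mucin genes.

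**Figure D2:**
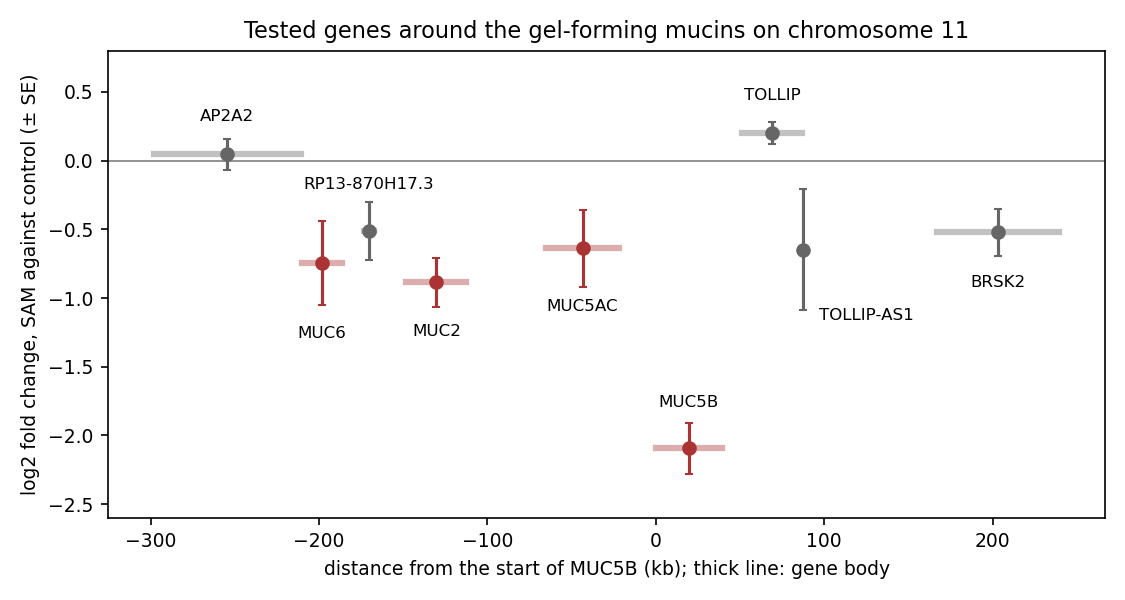
Log2 fold change with SAM against control (vertical, bars ± SE) for tested genes within 200 kb of MUC5AC or MUC5B, plotted by distance in kb from the start of MUC5B (horizontal), with mucin genes in red, other genes in grey and gene bodies as thick lines. The 4 mucin genes lie between -2.10 and -0.64. AP2A2 and TOLLIP on either side lie at 0.05 and 0.20, RP13-870H17.3 between MUC6 and MUC2 at -0.51 and BRSK2 at -0.52.

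MUC13 and MUC1 are shown here with the 250 bases before a RefSeq start (GRCh38.p14, minus strand, 5′ to 3′ as the gene is read). They were picked because their differences had opposite signs, although that of MUC1 did not pass. Capitals mark CpG dinucleotides, the sites at which DNA methyltransferases use SAM. Methylation was not measured in these libraries. The MUC13 window lies inside the span that the files give for the gene.

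MUC13, chr3:124934752-124935001: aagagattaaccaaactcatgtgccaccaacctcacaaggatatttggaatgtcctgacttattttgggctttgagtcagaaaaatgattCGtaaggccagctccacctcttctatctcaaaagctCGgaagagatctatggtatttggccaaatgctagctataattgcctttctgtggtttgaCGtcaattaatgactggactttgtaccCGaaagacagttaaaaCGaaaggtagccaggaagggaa

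MUC1, chr1:155192916-155193165: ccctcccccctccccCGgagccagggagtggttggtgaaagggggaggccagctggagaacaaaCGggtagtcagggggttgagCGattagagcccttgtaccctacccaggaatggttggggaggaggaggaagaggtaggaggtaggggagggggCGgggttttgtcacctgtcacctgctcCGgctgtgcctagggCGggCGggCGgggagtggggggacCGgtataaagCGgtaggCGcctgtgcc

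The MUC13 stretch held 5 CpG sites at 41.6% GC, and 65.7% of 35116 RefSeq promoter windows of this length held at least as many. The MUC1 stretch held 11 CpG sites at 66% GC, and 50.3% of windows held at least as many. Its GC box motif GGGCGG, counted on both strands with overlapping matches, occurred 4 times, and its TATAAA motif once. At least 1 match to these motifs was present in 42.6% and 10.7% of windows. The MUC13 stretch had neither, and it held 1 match to the AP-1 motif TGANTCA, which 6.57% of windows contain. A MUC16 window (chr19:9010410-9010659) held 1 such match too. The MUC4 window and the other MUC16 window (chr19:9065752-9066001) each held 1 GC box motif. The windows of MUC4 and of both MUC16 starts held 7, 6 and 6 CpG sites. That of a further MUC1 start, overlapping the one shown, held 12. Both MUC16 windows lie outside the span given for the counted gene, which ends at position 8981342. RefSeq windows were matched for 4 of the 7 genes, MUC1, MUC4, MUC13 and MUC16, and a motif match is a description of letters and not of binding.

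MUC13 (ENSG00000173702, chromosome 3, positions 124905442 to 124953819) encodes a membrane mucin of the digestive tract with EGF-like domains. Its counts were 4, 16 and 8 in controls and 104, 31 and 23 with SAM. At 0.429, 0.727 and 0.392 CPM against 3.58, 2.62 and 1.52 CPM the groups did not overlap, and SAM 1 was the highest library. The log2 fold change was 2.30 (SE 0.39), the 13th largest in absolute size, and the call was higher. MUC13 passed the filter on low counts through all 3 SAM libraries, whereas 1 control library reached the cut of 0.564 CPM. The call was lost without control 3 and without SAM 1, at log2 fold changes of 2.07 and 1.91. Without both libraries that stood apart, control 1 and SAM 2, the log2 fold changes were 2.25 for MUC13 and -2.29 for MUC5B, and both kept their calls. Of the neighbours, ITGB5, an integrin subunit gene 4024 bases away, had a log2 fold change of 0.12 (SE 0.09) and HEG1, a membrane protein 11891 bases away on the other side, -0.52 (SE 0.20). Neither passed.

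MUC1 (ENSG00000185499, chromosome 1, positions 155185824 to 155192916) encodes the widespread epithelial membrane mucin whose cytoplasmic tail binds beta-catenin. It had 6.01, 6.77 and 6.66 CPM in controls and 3.79, 4.40 and 5.48 CPM with SAM. Each SAM library lay below each control library, and SAM 3 was nearest to the controls. The log2 fold change of -0.53 (SE 0.17) did not pass. It passed at -0.69 without SAM 3 and at -0.63 once a per-library trend on GC content and transcript length was removed. Over all tested genes those settings called 2499 and 2881 genes, against 1598 in the main edgeR fit. Of the adjacent genes TRIM46, 853 bases away, had a log2 fold change of 0.29 (SE 0.16) and THBS3, 2672 bases away on the other side, -0.41 (SE 0.19), and neither passed.

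MUC20 and MUC4 lie 5642 bases apart on chromosome 3. MUC20 (ENSG00000176945, positions 195720882 to 195741123), a membrane mucin that binds the receptor MET, had 1.93, 2.13 and 2.11 CPM in controls and 0.965, 1.44 and 1.85 CPM with SAM. The groups did not overlap, with SAM 3 close below control 1, and the log2 fold change of -0.61 (SE 0.26) did not pass. Without SAM 1 it was -0.33. MUC20 overlaps LINC00969, a noncoding gene at 8.54 CPM in controls and 9.82 CPM with SAM. The sources used here do not say whether counting used strand, so reads of MUC20 and LINC00969 may be mixed. MUC4 (ENSG00000145113, positions 195746765 to 195812277), a membrane mucin that binds ERBB2, had 1.07, 1.09 and 0.637 CPM in controls and 0.827, 0.846 and 0.792 CPM with SAM. All 3 SAM values fell inside the control range. Its log2 fold change was -0.15 (SE 0.29), which became -0.40 without control 3, 0.0344 without control 2 and 0.0472 with the GC and length trend removed.

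MUC16 (ENSG00000181143, chromosome 19, positions 8848844 to 8981342) encodes the membrane mucin that carries the CA125 antigen. Its counts were 5, 15 and 11 in controls and 1, 6 and 1 with SAM. These correspond to 0.536, 0.681 and 0.539 CPM in controls and to 0.0344, 0.507 and 0.0660 CPM with SAM. SAM 1, the deepest library, held a single count, and SAM 2 held nearly the control level. MUC16 did not pass the filter on low counts and was not tested. Fitted without the filter it had a log2 fold change of -1.94 (SE 0.55), which passed but rests on 1, 6 and 1 counts in the SAM group. It passed the filter in some fits with 1 library left out. The log2 fold change was then -3.54 (SE 0.60) without SAM 2, which passed the threshold. It was -2.00 (SE 0.75) without control 1 and -1.67 (SE 0.74) without SAM 3, and neither passed.

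Of the 7 genes, 6 were tested, 1 was called lower, 1 was called higher and 4 were not called. Over all 15312 tested genes 5.24% were called lower and 5.19% higher. CPM did not overlap between the groups for 4 of the 6 tested genes, against 36.7% of all tested genes. Since the genes were chosen with this contrast known, nothing is read from these shares. The median log2 fold change of the 6 was -0.57, beside -0.0072 over all tested genes, and it was -0.36 without SAM 1.

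**Figure D3:**
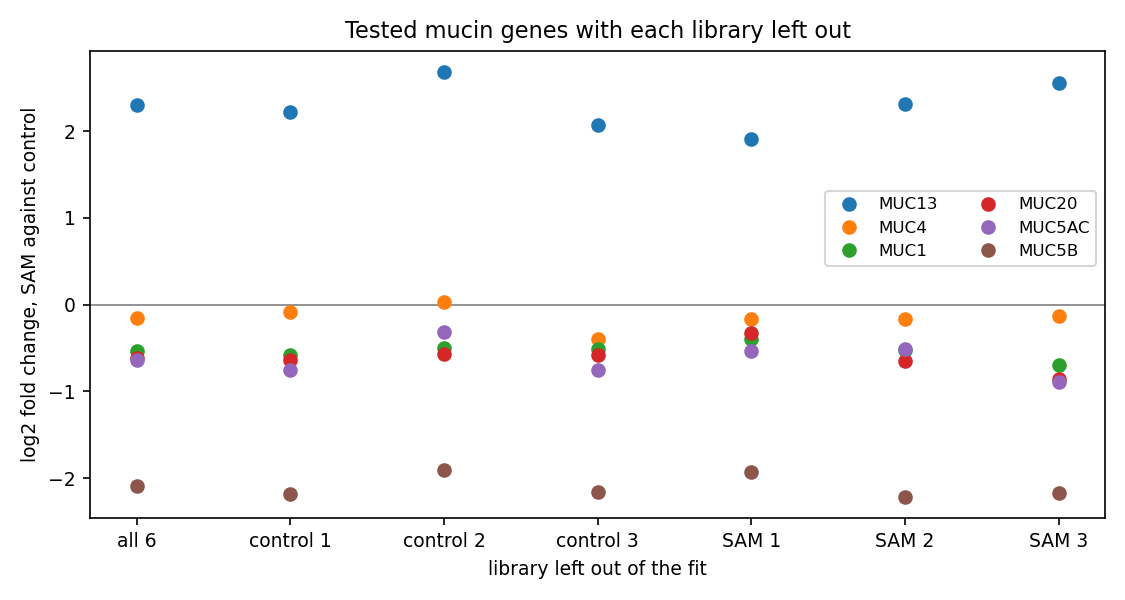
Log2 fold change with SAM against control (vertical) for the 6 tested mucin genes (colours), fitted with all 6 libraries and with the named library left out (horizontal). MUC5B stays between -2.21 and -1.91 and MUC13 between 1.91 and 2.68, and MUC4 crosses 0 without control 2.

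Levels of different mucins were compared per kilobase of annotated exon. In controls MUC1 was highest with 2.70 ± 0.171 CPM per kilobase, followed by MUC5B with 1.24 ± 0.245 and MUC20 with 0.301 ± 0.0161 (SD, n = 3). MUC5AC followed with 0.198 ± 0.0637 and MUC13 with 0.147 ± 0.0524 CPM per kilobase, and the ranges of these neighbours in the order overlapped. MUC4 with 0.0444 and MUC16 with 0.0133 CPM per kilobase were lowest. With SAM MUC1 was still highest at 1.90 ± 0.357 CPM per kilobase, but MUC13 at 0.736 ± 0.295 stood above MUC5B at 0.298 ± 0.0556. The SAM ranges of MUC13 and MUC5B did not overlap, while MUC5B overlapped MUC20, and MUC20 overlapped MUC5AC. In raw CPM, by contrast, MUC5B led in controls, since its exons span 18598 bases against 2401 for MUC1. A single exon held between 49.1% and 60.5% of the exonic length of MUC4, MUC5AC, MUC5B and MUC16. Gene totals do not show how many reads from repeats were counted, which limits the comparison of levels between genes more than that of a gene between groups.

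Genes with the pattern most like MUC5B were LXN, a carboxypeptidase inhibitor, ETV6, an ETS family repressor, and RNF41, a ubiquitin ligase that acts on ERBB3. Their log2 CPM correlated with that of MUC5B at Pearson r = 0.997, 0.994 and 0.994 over 6 libraries. All 3 were called lower, with smaller differences than MUC5B (log2 fold changes -0.59, -0.38 and -0.42). Those most like MUC13 were CSF3, the granulocyte colony-stimulating factor (r = 0.998), CXCL6, a neutrophil chemokine (0.993), and GLI2, an effector of Hedgehog signalling (0.990). CSF3 rose from 4.17 to 9.32 CPM and CXCL6 from 10.8 to 36.3 CPM, both called higher, whereas GLI2 with 4.59 and 6.37 CPM was not called. They were the closest of 11280 named genes for MUC5B and of 11281 for MUC13, and all points share their libraries and the group difference.

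Other genes classed as mucins or sialomucins gave 1 call. Of 16 such genes with counts tabulated, 8 were tested, 1 fell, which was MUC2, and 0 rose by edgeR, beside 5.24% lower and 5.19% higher over all tested genes. At an unadjusted p under 0.05 there were 3 higher and 2 lower. DESeq2 called 0 higher and limma voom 1. MUC7, a salivary mucin, had 0.938 CPM in controls and 1.77 CPM with SAM without overlap (log2 fold change 1.06, SE 0.30, edgeR adjusted p = 0.0513). MCAM, an adhesion molecule also named MUC18, and PODXL, a sialomucin, were the most abundant, at 206 and 233 CPM in controls, and did not pass. MUC17 had 0 counts in all libraries, and MUC12, MUC15, MUC19, MUC21, MUC22, MUCL1 and EMCN were too low to test.

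Of 23 genes of mucus-producing cells with counts tabulated, 9 were tested, 5 fell, 0 rose and 4 did not pass, beside 5.24% lower and 5.19% higher over all tested genes. The list was chosen with results of these libraries known, so nothing is read from that share. Its median log2 fold change was -0.46, and -0.26 over the 17 genes fitted without a filter on low counts. None was higher at an unadjusted p under 0.05, and neither DESeq2 nor limma voom called any higher. SPDEF, an ETS factor that drives goblet cell differentiation, fell by 1.15 on the log2 scale (SE 0.19, edgeR adjusted p = 0.00925), to a mean of 12.4 ± 3.62 CPM from 27.0 ± 3.0 CPM. Its libraries were at 25.3, 30.5 and 25.2 CPM in controls and at 9.20, 11.6 and 16.3 CPM with SAM. CREB3L1, a transcription factor of the secretory pathway, fell from 2.04 ± 0.247 to 0.994 ± 0.216 CPM (adjusted p = 0.0309). FOXA1, a pioneer factor of luminal prostate epithelium, fell from 94.0 ± 6.43 to 67.1 ± 5.29 CPM (adjusted p = 0.0201). AGR2, a disulfide isomerase needed for the folding of gel-forming mucins, fell from 117 ± 9.86 to 77.4 ± 17.2 CPM (adjusted p = 0.0364), and KLF4, an epithelial differentiation factor, fell as well. TFF3, the trefoil factor secreted with intestinal mucus, and CLCA1 had 0 counts in all libraries. All 5 calls were lost without control 2 or control 3. SPDEF kept its call without the other libraries, and its adjusted p was at most 0.0552 over the settings. The other 4 were also lost without control 1 or SAM 1, with an adjusted p of up to 0.205, and 2 genes, SPDEF and FOXA1, were called without control 1 and SAM 2 together.

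Enzymes that build mucin-type O-glycans went both ways. Of 30 listed 22 were tested, 2 rose, 2 fell and 18 did not pass, beside 5.19% higher and 5.24% lower over all tested genes. The median log2 fold change was -0.0171, and it ranged from -0.0991 without control 3 to 0.00669 without control 1. All 4 called genes belong to the GALNT family of N-acetylgalactosaminyltransferases. GALNT10 fell from 117 ± 8.94 to 83.0 ± 10.2 CPM (edgeR adjusted p = 0.0270) and GALNT7 from 54.6 ± 4.15 to 38.7 ± 6.05 CPM (adjusted p = 0.0327). GALNT14 rose from 11.5 ± 0.730 to 16.2 ± 1.07 CPM (adjusted p = 0.0298) and GALNT18 from 30.4 ± 0.496 to 41.7 ± 6.33 CPM (adjusted p = 0.0357). The core 1 enzyme C1GALT1 and its chaperone C1GALT1C1 had log2 fold changes of -0.19 (SE 0.14) and 0.31 (SE 0.13) and did not pass. The 4 calls were lost without control 1, 2 or 3 or SAM 1, with an adjusted p of up to 0.172, and only GALNT10 was called without control 1 and SAM 2 together.

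Among receptors bound by membrane mucins, their sheddases and transcription factors known to act on mucin genes, 6 of 23 tested genes fell, 0 rose and 17 did not pass, beside 5.24% lower and 5.19% higher over all tested genes. This list too was chosen with results of these libraries known, and nothing is read from its share. The median log2 fold change was -0.29, against -0.16 without SAM 3 and -0.13 with the GC and length trend removed. None was higher at an unadjusted p under 0.05, and DESeq2 and limma voom called 0 higher. ERBB3, a receptor of the EGF receptor family, fell from 93.1 ± 1.34 to 66.98 ± 6.48 CPM (edgeR adjusted p = 0.0201), and ERBB2, the partner of MUC4, fell from 127 ± 4.52 to 92.4 ± 14.9 CPM (adjusted p = 0.0440). ADAM17, a protease that sheds MUC1, fell from 62.7 to 45.0 CPM (adjusted p = 0.0468). The factors SP1, which binds GC boxes, ELF3, an epithelial ETS factor, and GATA6 fell too, with SP1 going from 223 ± 16.7 to 156 ± 25.1 CPM (adjusted p = 0.0306). MET, the partner of MUC20, and CTNNB1, the beta-catenin that binds MUC1, had log2 fold changes of -0.23 (SE 0.14) and -0.04 (SE 0.09) and did not pass. STAT3 had 0 counts in all libraries, and PC-3 cells are known to lack it. All 6 calls were lost without control 1, 2 or 3 or SAM 1, with an adjusted p of up to 0.209. ERBB3, ADAM17 and SP1 were called without control 1 and SAM 2 together.

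**Figure D4:**
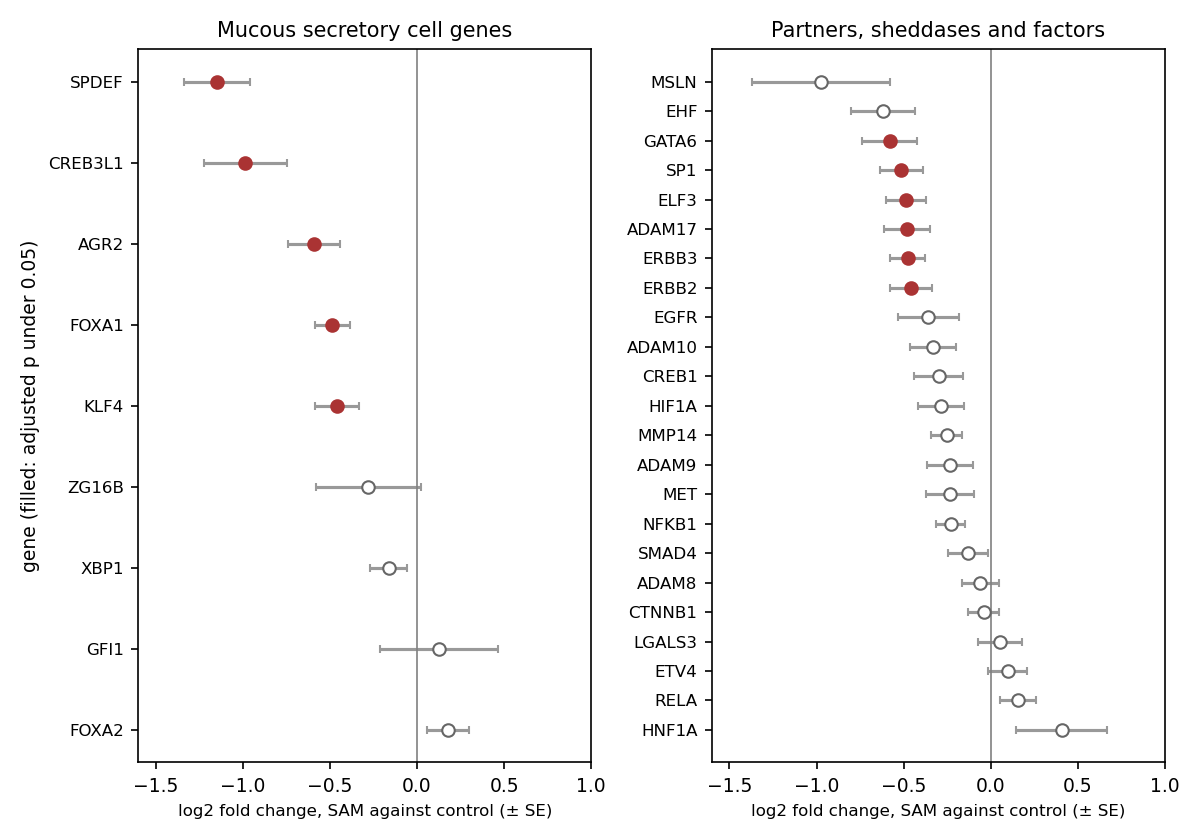
Log2 fold change with SAM against control (horizontal, bars ± SE) for the tested genes of mucus-producing cells (left) and of membrane mucin partners, sheddases and transcription factors (right), with genes past an edgeR adjusted p of 0.05 filled in red. SPDEF lies lowest on the left at -1.15, and the filled genes on the right lie between -0.58 and -0.46.

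Within 200 kb of the 7 genes 47 other genes were tested, of which 1 was called higher and 2 lower, beside 5.19% higher and 5.24% lower over all tested genes, so these counts show nothing particular to the neighbours. The calls were RUSC1 near MUC1 (log2 fold change 0.48, SE 0.09), MUC2 and ZNF558, a zinc finger gene 16516 bases from MUC16 (log2 fold change -0.67, SE 0.11). ZNF558 fell from 37.8 to 23.9 CPM.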

How the data were processed

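Raw read counts for each Ensembl gene were deposited, beside a second deposited file of normalised signal. There every count is divided by the library's size factor, 0.562 to 1.75. The submitters' processing notes name HTSeq 0.6.1, STAR 2.4, DESeq2 1.8, CASAVA 1.8.2, SAMtools 0.1.19 and FastQC 0.10.0 without roles. The labels give another dose, RNA kit and sequencer than the study's text, and the labels were followed. Deposited coordinates were taken as GRCh38, since 99.9% of 51488 identifiers shared with GENCODE release 44 overlap there. Exon lengths came from that release and upstream sequences from RefSeq.

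Of all counts 99.9% lay in the 15312 genes left by filterByExpr. These were scaled with TMM and fitted in edgeR 4.0.16 (R 4.3.3) with glmQLFit and glmQLFTest on treatment alone, two-sided, with Benjamini-Hochberg adjustment over all tested genes. The SE was derived from F and the log2 fold change. The fitted coefficient of variation between libraries of a group, beyond counting error, was 13.5%. On simulated counts for these 15312 genes of the SAM against control comparison, the fit recovered 41.8%, 74.6% and 100.0% of genes changed 1.5-, 2- and 4-fold. Each fold had 66 or 67 changed genes. Simulated scatter depended on abundance alone, without extra scatter of single genes or the composition differences of control 1 and SAM 2. Recovery in the real libraries may therefore be lower. Libraries of a group differed by 4.57 to 55.2 times sampling noise (chi-square per degree of freedom), so none were merged.

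The 7 genes and the 4 further lists were chosen with earlier results of these data known. From the lists, called members are named, with values for those of smallest p. Alternatives were other scalings, filters and dispersions, DESeq2 1.42.0, limma 3.58.1 (voom, or the deposited normalised values on a log2 scale with pseudocount 1), 0.01 in place of 0.05 for the adjusted p, omission of single libraries and a replicate block. Removal of control 1 with SAM 2 and of a GC and length trend was added after seeing the data. Genes most like a called mucin were ranked by Pearson r of log2 CPM over named genes whose log2 CPM averaged 2 or more. Figures were drawn with matplotlib 3.10.9.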

Additional observations from a re-analysis of the deposited data

How the results depend on the processing

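The calls of MUC5B (lower) and MUC13 (higher) held under the scaling, filter, dispersion and tool alternatives. MUC13 met the cuts on low counts through its SAM libraries, with controls at most at 0.727 CPM. Its call under those filters is therefore no separate support. MUC13 lost its call without control 3 or SAM 1, while MUC1 was called lower without SAM 3 and MUC16 without SAM 2. The number of called mucins ran from 1 to 3 with 1 library left out. In those fits calls ran from 0 to 2 among other mucin genes, from 0 to 7 among glycosylation enzymes, from 0 to 5 among mucous secretory genes and from 0 to 9 among partners, sheddases and factors. The upper ends came without SAM 2, and for all but the glycosylation enzymes also without SAM 3. Over all genes 139 to 255 were called without any 1 control or SAM 1 and 2499 or 3233 without SAM 3 or SAM 2, and the cause was not tested. Without both control 1 and SAM 2, the numbers called were 2, 1, 2 and 3 in those 4 lists, beside 954 of 15810 tested genes. MUC5B then had a log2 fold change of -2.29. At an adjusted p under 0.01 the 4 lists had 0, 0, 1 and 0 calls, beside 253 of 15312 tested genes. Other mucin genes gave 2 calls with upper-quartile factors (1520 of 15312 over all tested genes) and without a filter (2743 of 30874). They also gave 2 at 1 CPM in 3 libraries (1598 of 14139), with robust dispersion (1718 of 15312) and with limma voom (1676 of 15312). With the GC and length trend removed they gave 3, where 2881 of 15312 were called over all tested genes. Nothing is read from these counts about the lists. MUC4 turned to 0.0344 without control 2 and to 0.0472 with that trend removed. Counted per kilobase of the longest transcript, the control level was 3.58 CPM for MUC1 and 0.407 CPM for MUC20, with the order of the 7 genes unchanged. MUC16, not tested with all 6 libraries, had log2 fold changes of -1.67 without SAM 3, -2.00 without control 1 and -3.54 without SAM 2.

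Same-numbered libraries did not deviate together (r = -0.17, -0.40 and 0.13), and the highest value was that of control 1 with SAM 2 (r = 0.45). With 3 libraries in a group these values cannot decide whether the numbers pair the samples. With the replicate block 2 of the glycosylation enzymes were called, and 2 mucins, 1 other mucin gene, 4 secretory genes and 4 partners and factors. Over all tested genes that setting called 1028 of 15312. Depth limits MUC13 in controls, MUC4 and MUC16, which had at most 24 counts in these libraries.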
